A study of Mus musculus with 5 samples.

Results

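Ccr7-positive migratory dendritic cells were picked cell by cell from 4 droplet libraries of mouse kidney, and 114 of 13823 kept cells met the rule. A kept cell had at least 200 detected genes and at most 50% of its unique molecular identifiers (UMIs, each standing for 1 captured transcript) in mitochondrial genes. A member had at least 3 UMIs of Ccr7, Fscn1 and Ccl22 together with at least 2 of these genes detected, at least 20 UMIs of the class II genes H2-Aa, H2-Ab1, H2-Eb1 and Cd74 together, and no UMI of Cd3e, a T cell gene. There were 0 members in sham kidney, 5 on day 2 of obstruction, 85 on day 7 and 24 after reversal.

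The study used a mouse model of unilateral ureteric obstruction (UUO): urine flow from 1 kidney is stopped and can be restored later. The strain was C57/BL6 and the mice were 8 weeks old. Neither a transgene nor a further treatment is named in the labels. The groups were sham surgery (the day 0 time point), UUO day 2, UUO day 7, and reversed UUO, sampled 7 days after reversal on experimental day 14. Each group was 1 library from 3 pooled mice, so no spread between animals can be had and no test between time points was made. Intervals below are exact 95% intervals and cover counting error only. A further sample held 768 Smart-seq2 wells with all time points mixed and is described at the end. Its counts include an EGFP entry, which was left out here, and the labels do not name its source.

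Dendritic cells sample antigen in a tissue and, once mature, leave it through lymphatic vessels for the draining lymph node. CCR7 is the receptor that guides them along CCL19 and CCL21, FSCN1 (fascin) bundles actin in their long dendrites, and CCL22 is a chemokine for CCR4-bearing T cells. Mature cells of this state are known to lower antigen uptake, to raise ligands for T cells and to switch on both NF-kB branches, in which RelB pairs with the product of Nfkb2. The state can be entered from type 1 dendritic cells, which carry Xcr1 and Clec9a, and from type 2 dendritic cells, some of which carry Cd209a.

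In GENCODE vM21 on GRCm38, Ccr7 lies at chr11:99144196-99155077 on the minus strand and Fscn1 at chr5:142960343-142973185 on the plus strand. Ccl22 lies at chr8:94745590-94751699 and its neighbour Ccl17 at chr8:94810453-94812036, both on the plus strand. Il4i1, the marker given for these cells that the rule did not use, lies at chr7:44816387-44840809 on the plus strand.

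Because NF-kB genes and the genes of the migratory state were high together in these cells (values below), the starts of those genes were searched for the NF-kB consensus, a motif of 10 letters, on both strands. Each window holds 250 bases before and 50 after a RefSeq start site (GRCm38.p6). Of the rule genes and the 46 genes of the migratory list, 36 had a window, Ccr7 not among them, and 5 of these (13.9%) held the motif: Tmem150c, Spint2, Basp1, Ramp3 and Pdcd1lg2. Of the 23 genes of the NF-kB list, 20 had a window and 9 of these (45.0%) held the motif: Nfkb2, Rel, Nfkbia, Traf3, Tnfaip3, Tnip1, Tnip3, Bcl3 and Tnfrsf9. Over all genes in the table the share was 6.55% (1769 of 27025), and over all windows 5.80% (1907 of 32851). The windows of Fscn1, Ccl22, Il4i1, Ccl17, Birc3 and Traf1 held no match, which says only that these letters are not in them. Shown are the Nfkb2 window with 2 matches and the windows of the 3 migratory genes that were higher in members in all 3 comparisons below. Matches are in capitals, and those in Basp1 overlap. They are matches of letters, and no binding was measured.
Nfkb2, chr19:46304487-46304786, plus strand: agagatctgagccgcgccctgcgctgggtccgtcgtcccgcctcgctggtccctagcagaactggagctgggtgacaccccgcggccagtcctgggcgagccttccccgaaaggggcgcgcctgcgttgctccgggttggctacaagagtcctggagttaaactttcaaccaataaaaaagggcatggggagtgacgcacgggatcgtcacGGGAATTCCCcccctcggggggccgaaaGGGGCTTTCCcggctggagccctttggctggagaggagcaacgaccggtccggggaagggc
Spint2, chr7:29281928-29282227, minus strand: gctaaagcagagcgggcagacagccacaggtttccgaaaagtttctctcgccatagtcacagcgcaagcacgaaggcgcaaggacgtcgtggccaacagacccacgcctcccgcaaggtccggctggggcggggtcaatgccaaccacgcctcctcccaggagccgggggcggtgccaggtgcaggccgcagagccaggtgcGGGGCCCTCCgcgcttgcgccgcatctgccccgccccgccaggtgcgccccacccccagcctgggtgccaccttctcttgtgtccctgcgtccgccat
Basp1, chr15:25413715-25414014, minus strand: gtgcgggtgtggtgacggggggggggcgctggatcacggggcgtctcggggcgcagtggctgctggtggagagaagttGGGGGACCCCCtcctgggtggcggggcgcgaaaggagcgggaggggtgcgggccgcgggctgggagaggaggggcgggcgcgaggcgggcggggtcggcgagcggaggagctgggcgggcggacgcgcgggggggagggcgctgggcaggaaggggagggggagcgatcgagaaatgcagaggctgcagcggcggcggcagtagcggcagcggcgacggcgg
Tmem150c, chr5:100159526-100159825, minus strand: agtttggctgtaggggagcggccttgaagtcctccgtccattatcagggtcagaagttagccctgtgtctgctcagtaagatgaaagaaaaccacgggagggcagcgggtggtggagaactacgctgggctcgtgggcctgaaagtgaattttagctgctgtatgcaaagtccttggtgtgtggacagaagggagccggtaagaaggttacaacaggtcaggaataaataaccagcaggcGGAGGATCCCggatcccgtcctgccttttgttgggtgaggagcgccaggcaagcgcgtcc

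The 4 libraries held 2739 to 5938 deposited cells each, with 2207 to 4447 kept. The median depth of kept cells was 2709 UMIs in sham and between 4937.5 and 6590 in the other libraries. The median mitochondrial share of kept cells ran from 2.98% on day 7 to 33.7% in sham. No member's barcode occurred in another library. On day 7, the class II limit of 20 UMIs was also passed by 54.2% of endothelial cells and 76.3% of proximal tubule cells, against 0.426% and 0.201% in sham. Class II UMIs therefore did little to pick out members in the day 7 library, where the 3 rule genes and Il4i1 carry the label.

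The day 7 library had the highest share of members among kept cells, 1.91% (85 of 4447, interval 1.53 to 2.36%). The reversed library had 0.742% (24 of 3236, interval 0.476 to 1.10%), and the day 2 library 0.227% (5 of 2207, interval 0.0736 to 0.528%). In sham there were 0 of 3933, which allows a share of up to 0.0763% (3 counts of the total; the upper end of the exact interval is 0.0937%). These shares depend on how many tubule cells each suspension held. Among dendritic cells as defined here (members, Xcr1, Clec9a or Tlr3-positive type 1 dendritic-like cells and Cd209a-positive type 2 dendritic-like cells), members were 6.33% on day 2 (5 of 79, interval 2.09 to 14.2%). The same share was 19.4% on day 7 (85 of 439, interval 15.8 to 23.4%) and 15.5% in the reversed library (24 of 155, interval 10.2 to 22.2%). The intervals of day 7 and reversed UUO overlap on this scale, and do not on the scale of all kept cells. As a share of cells passing the class II limit, members made up 2.56% in the reversed library (interval 1.65 to 3.79%), 2.39% in the day 7 library (interval 1.91 to 2.95%) and 1.06% in the day 2 library (interval 0.344 to 2.45%), so day 7 was not the highest there. Among kept cells with at most 20% mitochondrial UMIs the intervals of day 7 and reversed UUO overlap too, at 2.03% (1.63 to 2.51%) and 1.16% (0.744 to 1.72%). Sham held only 19 cells of these 3 kinds, none of them a member, which allows a share of up to 15.8% (exact interval up to 17.6%). With every cell thinned to 2000 UMIs before the rule was applied, 0, 4, 59 and 9 members were left in sham, day 2, day 7 and reversed UUO, and the share was 1.33% on day 7 and 0.278% after reversal.

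**Figure D1:**
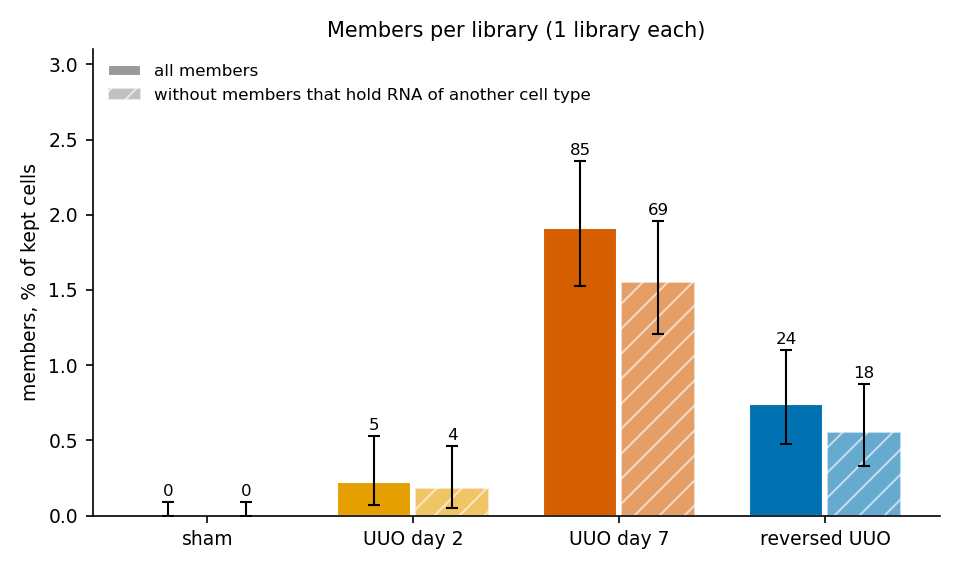
Members of each droplet library as a percentage of kept cells, with exact 95% binomial intervals as error bars and the number of members above each bar. Hatched bars leave out members with RNA of another cell type. Day 7 stands highest at 1.91% (85 cells), reversed UUO lies at 0.742%, and sham has no member.

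The rule genes themselves are a description, since they chose the cells. Ccr7 had a median of 5 UMIs on day 2, 6 on day 7 and 4.5 after reversal, with a highest cell of 47 UMIs. Fscn1 had medians of 21, 8 and 3 UMIs in the same order, and Ccl22 medians of 9, 4 and 2. All 3 genes were detected in 57 of 114 members. In 21 members Ccl22 was the missing gene, in 20 it was Fscn1 and in 16 it was Ccr7. Il4i1, which the rule did not use, was found in 54 of the 57 members with all 3 genes and in 7 of the 16 without Ccr7. Cacnb3, a gene of the migratory list, was found in 52 and in 3 of them. Fscn1 is not particular to dendritic cells, since at 2000 UMIs per cell it was found in 28.6% of day 7 endothelial cells, whereas Ccr7 was found in none of those 461 cells. The 6 cells just inside the limit (3 rule UMIs) included 1 with Il4i1, and 7 of 36 cells just outside it (2 UMIs over 2 genes) had Il4i1. Another 103 cells had at least 3 UMIs of a single rule gene, and 28 of them had Il4i1. The class II limit kept out 8 cells, and Cd3e kept out 5 cells, all 5 with Il4i1.

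Il4i1 encodes a secreted oxidase of aromatic amino acids that restrains T cells, and it was the check of the label. It was detected in 93 of 114 members (81.6%, 73.2 to 88.2%): in 4 of 5 on day 2, 71 of 85 on day 7 and 18 of 24 after reversal. At 2000 UMIs per cell it was found in 72.9% of day 7 members and 45.8% of reversed members. In the same libraries it was found in 1.30% and 0.522% of endothelial cells and in 5.53% and 7.94% of type 2 dendritic-like cells. The share in members thus lay well above that of cells that should lack the gene, and most members carried the marker.

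Members also carried RNA of other cell types. At least 5 UMIs of proximal tubule markers were found in 52 of 114 members, among them 25 of 85 on day 7 and 23 of 24 after reversal. Higher limits set after seeing the values (20 UMIs of 6 fibroblast markers, 15 of 8 endothelial markers, 60 of 10 proximal tubule markers, 30 of 8 other tubule markers, 10 of 10 B cell markers, 10 of 14 T and NK cell markers, 20 of C1qa, C1qb and C1qc, or 20 of Jchain) were reached by 23 of 114 members. These were 1 of 5 on day 2, 16 of 85 on day 7 and 6 of 24 after reversal. C1q genes were the most frequent reason (10 cells), followed by endothelial (6) and fibroblast (5) markers. Il4i1 was absent from 13 of these 23 cells. Among the other 91 members it was found in 83 (91.2%; 65 of 69 on day 7 and 14 of 18 after reversal), and Tmem123, a membrane protein gene of the migratory list, in 95.6%. Without the 23 cells, members were 0.181%, 1.55% and 0.556% of kept cells on day 2, on day 7 and after reversal. Scrublet, which scores likely doublets, removed 13 of the 114 members, and most of these 13 were among the 23 cells. The part of doublets in the 23 cells was not otherwise tested. Some results below are also given without them. In the comparisons between cell groups, leaving them out left 4 members on day 2, under the minimum of 5, so those values rest on day 7 and reversed UUO and carry both changes. The value without day 2 alone is then given beside them.

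Members also differed among themselves in the genes of the 2 conventional lineages. Some UMI of Xcr1, Clec9a or Tlr3 was present in 17 members and of Cd209a in 23, with 4 cells holding both. Neither was detected in 78 of 114 (68.4%). Only 7 members met the full rule for type 1 cells and 7 that for type 2 cells.

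**Figure D2:**
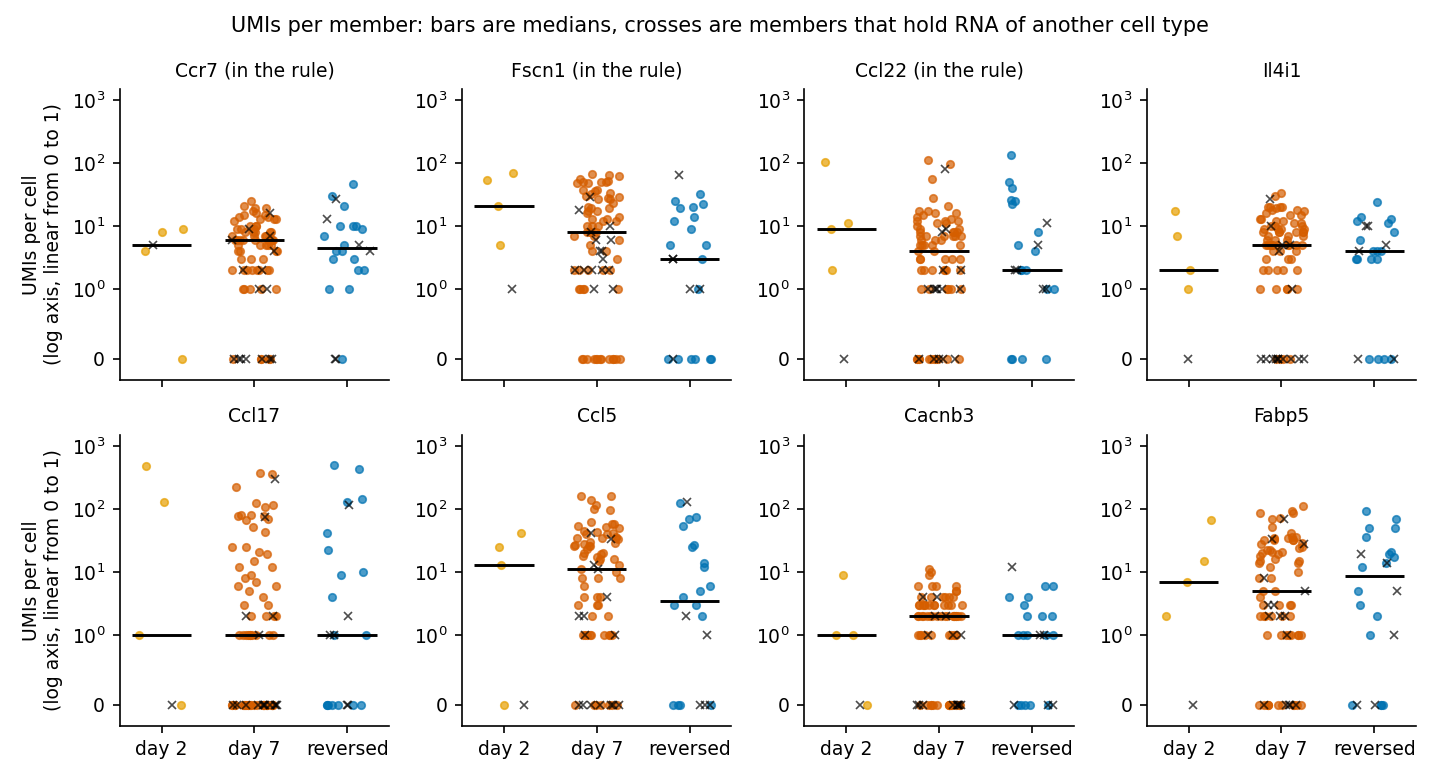
UMIs per member for 8 genes, 1 point per cell, by library (day 2, day 7, reversed UUO), with medians as bars and members with RNA of another cell type as crosses, on an axis that is linear from 0 to 1 and logarithmic above. Ccl17 spreads from 0 to 505 UMIs per cell while Il4i1 ends at 33.

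Members were then compared, within the libraries, with 3 other cell groups that could be mistaken for them. Counts were summed per library and cell group for day 2, day 7 and reversed UUO and fitted together with edgeR's quasi-likelihood test with the library as a block. With this block, the p-values measure only how differences between cell groups varied over these 3 libraries, with 6 residual degrees of freedom. The 3 libraries are different time points and not replicates of 1 condition. Members and comparison groups share 1 estimate of spread per gene, though their sums differ in size. On day 2 the 5 members held 48076 UMIs, while 1543 macrophage-like cells on day 7 held 10562375. The members were also chosen from counts of the same cells. The comparison groups held 54, 235 and 63 type 2 dendritic-like cells, 20, 119 and 68 type 1 dendritic-like cells, and 176, 1543 and 372 C1q-high macrophage-like cells in the same order. Genes that set any group were left out of all counts, and 7979 genes were tested. Levels are CPM, UMIs of a gene per 1000000 UMIs of the group's sum, in the order day 2, day 7 and reversed UUO. Adjusted p-values are Benjamini-Hochberg values from edgeR over all genes tested, and log2 fold changes carry their standard error.

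Of all genes tested, 644 were higher (8.07%) and 565 lower (7.08%) in members than in type 2 dendritic-like cells. Against type 1 dendritic-like cells 785 were higher (9.84%) and 536 lower (6.72%), and against macrophage-like cells 832 were higher (10.4%) and 791 lower (9.91%). In either direction that was 15.2%, 16.6% and 20.3% of genes. The median log2 fold change over all genes was -0.03, -0.02 and -0.04 in these 3 comparisons. Without TMM scaling it moved by about 0.1 to -0.14, -0.09 and -0.15, and the calls were 557 higher and 699 lower, 731 and 620, and 717 and 953. Without the day 7 library, which holds most members, the calls fell to 258 higher and 262 lower against type 2 cells, 305 and 221 against type 1 cells, and 363 and 426 against macrophage-like cells. Without the reversed library 370 genes were lower than in type 2 cells. With all 3 libraries and no library block, the calls were 377 higher and 350 lower, 497 and 338, and 566 and 491. The 3 comparisons share the members, so their counts are not independent of each other.

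The list of 46 migratory dendritic cell genes stood far from that background. Of its 45 tested genes, 43 were higher and 0 lower against type 2 cells (median log2 fold change 3.32), 40 higher and 1 lower against type 1 cells (3.30) and 42 higher and 0 lower against macrophage-like cells (3.51). The list was put together knowing earlier results of these data. It shares genes with lists below, among them Il4i1, Ccl17, Ccl5, Il12b, Cd40, Cd83, Cd274, Cd200, Socs2, Relb, Traf1 and Birc3. Counts of different lists are therefore not independent of each other. With day 2 left out, 44, 41 and 43 of 46 genes were higher, and with the 23 cells carrying other RNA left out too, 44, 41 and 44. Most of these genes are known from migratory dendritic cells of other organs, and several have no settled role there.

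Cacnb3, a calcium channel subunit gene, was at 229, 237 and 175 CPM in members and at 0, 5.01 and 0 CPM in type 2 cells, 6.34 ± 0.44 higher on the log2 scale (edgeR adjusted p = 7.4e-08). Nudt17, of the Nudix hydrolase family, was at 478, 256 and 161 CPM in members and at most 2.31 CPM in any comparison group, with a log2 fold change of 7.79 ± 0.47 against type 2 cells (edgeR adjusted p = 1.6e-08). Both were far above every comparison group in all 3 libraries. Apol7c, an apolipoprotein L gene, was at 874, 282 and 69.5 CPM in members and 0, 1.00 and 1.69 CPM in type 2 cells (8.31 ± 0.93, edgeR adjusted p = 9.4e-06). Its UMIs came from 3 of 5, 37 of 85 and 3 of 24 members, and a cell without a UMI can still hold the transcript. Fabp5, a fatty acid carrier gene, was at 1872, 1901 and 1557 CPM against 40.3, 97.7 and 57.5 CPM in type 2 cells (4.78 ± 0.47, edgeR adjusted p = 2.5e-06). It is no marker by itself, since 31.7% of day 7 endothelial cells had a Fabp5 UMI at 2000 UMIs per cell, next to 64.7% of members. Tmem123 was at 1560, 1340 and 1027 CPM against 123, 98.7 and 77.8 CPM in type 2 cells (3.75 ± 0.21, edgeR adjusted p = 8.3e-09).

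**Figure D3:**
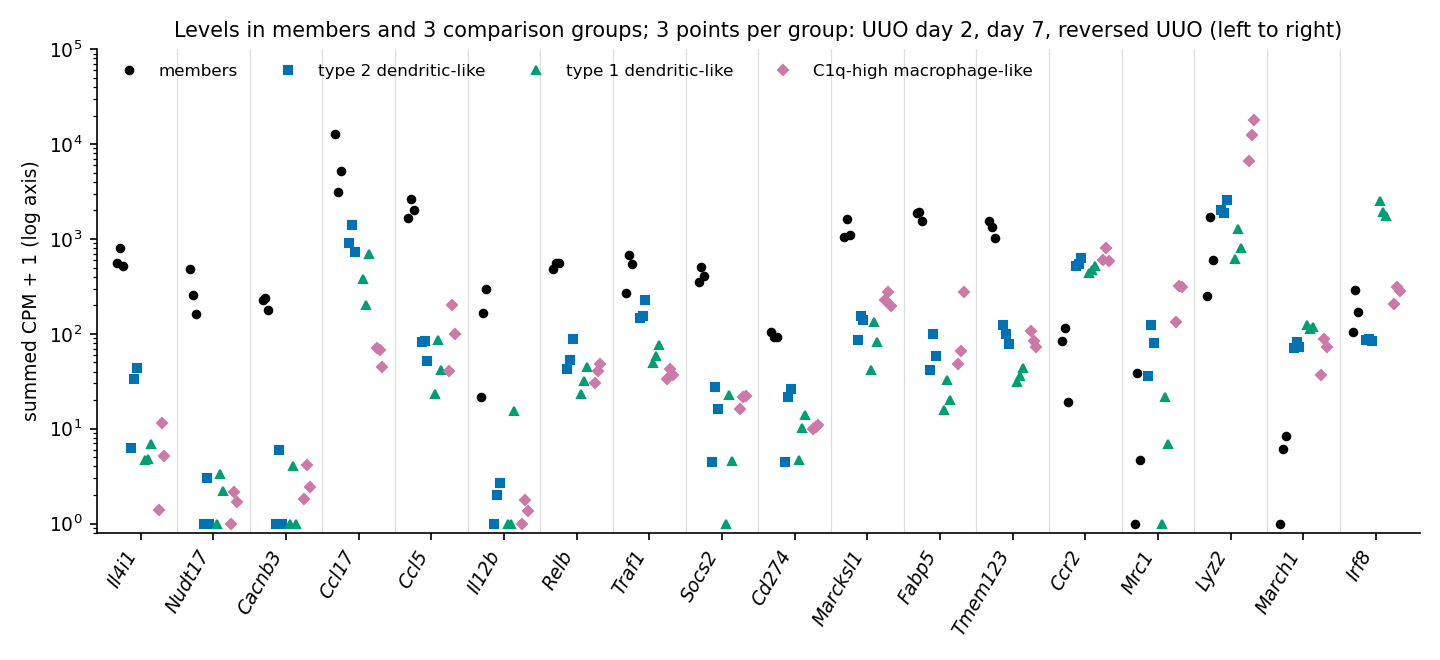
Summed level as CPM + 1, on a logarithmic axis, of members and the 3 comparison groups for 18 genes, with 1 point per library. Il4i1 in members lies between 515 and 809 CPM, above every point of the comparison groups.

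The chemokine and cytokine list had 6 of 11 tested genes higher and 1 lower against type 2 cells and against type 1 cells, and 3 higher and 3 lower against macrophage-like cells. The last counts were 3 and 2 without day 2, and 6 and 2 without day 2 and the cells holding other RNA. Ccl17, the second ligand of CCR4, was at 12792, 3101 and 5150 CPM in members and 902, 1388 and 724 CPM in type 2 cells (2.60 ± 0.43, edgeR adjusted p = 3.8e-04). Its level rested on few cells: 67 of 114 members had any UMI, 22 had at least 50, and 1 of the 5 day 2 cells held 485 of 615 UMIs. The share of cells with a Ccl17 UMI at 2000 UMIs was 36.5% of day 7 members and 32.8% of type 2 cells, so the shares were close there. The part of free RNA in these shares was not tested. Against macrophage-like cells, at 70.4, 66.2 and 43.9 CPM, the log2 fold change of Ccl17 was 6.70 ± 0.51 (edgeR adjusted p = 5.6e-08).

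Ccl5, a chemokine that draws T cells, was at 1643, 2624 and 2040 CPM in members and 80.6, 83.2 and 50.8 CPM in type 2 cells (4.91 ± 0.36, edgeR adjusted p = 1.2e-07). Members were higher in each of the 3 libraries and against all 3 groups, with log2 fold changes of 5.47 ± 0.38 against type 1 and 4.41 ± 0.33 against macrophage-like cells (edgeR adjusted p = 3.6e-08 and 5.0e-08). Cxcl16, a chemokine for CXCR6-bearing lymphocytes, was at 728, 742 and 804 CPM in members and 102, 147 and 120 CPM in type 2 cells (2.65 ± 0.20, edgeR adjusted p = 1.4e-07). Macrophage-like cells had nearly as much Cxcl16 (476, 596 and 637 CPM, log2 fold change 0.46 ± 0.18, edgeR adjusted p = 0.086). Il12b, the p40 chain of IL-12 and IL-23, was at 20.8, 166 and 296 CPM in members, with 1, 14 and 7 cells holding it. A single cell held 48 of 129 Il12b UMIs on day 7 and another 41 of 81 after reversal. In type 2 cells Il12b stood at 0, 1.00 and 1.69 CPM (7.47 ± 0.60, edgeR adjusted p = 2.6e-07). Il18 was the gene of this list lower in members in all 3 comparisons, at 0, 7.72 and 3.66 CPM against 10.5, 24.6 and 23.7 CPM in type 2 cells (-1.74 ± 0.45, edgeR adjusted p = 0.013). The Il18 call was lost without day 7 and without reversed UUO (edgeR adjusted p = 0.22 and 0.14). It was also lost without day 2 and the cells holding other RNA (edgeR adjusted p = 0.11), and not without day 2 alone (0.019).

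Genes for contact with T cells were mostly higher. Of 11 tested costimulatory and checkpoint ligands, 7 were higher and 2 lower against type 2 cells, 9 and 1 against type 1 cells, and 9 and 0 against macrophage-like cells. Cd40, the receptor of T cell help, was at 62.4, 189 and 58.5 CPM in members against 19.3, 33.6 and 37.2 CPM in type 2 cells (2.03 ± 0.31, edgeR adjusted p = 1.8e-04). Cd83, a maturation marker, was at 387 and 556 CPM on day 7 and after reversal against 91.2 and 129 CPM in type 2 cells, while on day 2 the 5 members had 41.6 CPM and type 2 cells 50.8 CPM (2.06 ± 0.38, edgeR adjusted p = 9.4e-04). Cd274 encodes PD-L1, which engages the inhibitory receptor PD-1. It was at 104, 91.3 and 91.4 CPM against 3.50, 20.6 and 25.4 CPM in type 2 cells (2.44 ± 0.34, edgeR adjusted p = 7.2e-05). Cd200, a ligand that restrains myeloid cells, was at 187, 132 and 143 CPM against 3.50, 18.0 and 18.6 CPM (3.29 ± 0.37, edgeR adjusted p = 8.8e-06). Detection was partial, with Cd274 in 55 and Cd200 in 64 of 114 members. Without the day 7 library the Cd40 call was lost (0.94, edgeR adjusted p = 0.34), and without the library block the Cd83 call was (edgeR adjusted p = 0.063).

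Cd86, a ligand of CD28, did not follow the others. It was at 41.6, 114 and 143 CPM in members and 57.8, 68.2 and 54.2 CPM in type 2 cells (1.02 ± 0.27, edgeR adjusted p = 0.015), with day 2 in the other direction. Against type 1 and macrophage-like cells its log2 fold changes of -0.31 ± 0.26 and -0.03 ± 0.25 did not pass the test (edgeR adjusted p = 0.51 and 0.97). Without day 2 and the cells holding other RNA, Cd86 was called higher than in macrophage-like cells, and without day 2 alone it was not. Cd48, an adhesion ligand, was lower than in type 2 cells, at 229, 126 and 150 CPM against 357, 293 and 333 CPM (-1.03 ± 0.21, edgeR adjusted p = 0.0020). Tnfsf9, the ligand of 4-1BB, was lower than in type 2 cells (-0.99 ± 0.27, edgeR adjusted p = 0.019) and higher than in type 1 cells (2.83 ± 0.40, edgeR adjusted p = 6.8e-05). Against type 2 cells, leaving out day 7 ended the calls of Cd86, Cd48 and Tnfsf9 (edgeR adjusted p = 0.14, 0.065 and 0.089), and leaving out reversed UUO those of Cd86 and Tnfsf9 (0.23 and 0.076). Tnfsf9 was at -0.20 without day 2 and the cells holding other RNA (edgeR adjusted p = 0.62), and at -0.90 without day 2 alone (0.011).

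Of 13 tested regulatory genes, 8 were higher in each comparison, and 3, 1 and 3 were lower against type 2, type 1 and macrophage-like cells. Il4i1 itself was at 562, 809 and 515 CPM in members, 5.26, 32.6 and 42.3 CPM in type 2 cells, 3.73, 3.85 and 5.93 CPM in type 1 cells and 0.402, 10.4 and 4.22 CPM in macrophage-like cells. Its log2 fold changes were 4.67 ± 0.37, 7.35 ± 0.49 and 6.83 ± 0.38 (edgeR adjusted p = 2.3e-07, 3.3e-08 and 2.5e-09). Socs2, a brake on cytokine signalling, was at 354, 500 and 409 CPM against 3.50, 26.6 and 15.2 CPM in type 2 cells (4.72 ± 0.33, edgeR adjusted p = 8.4e-08). Aldh1a2, the enzyme that makes retinoic acid, was at 62.4, 235 and 179 CPM against 5.26, 12.5 and 32.2 CPM (3.63 ± 0.40, edgeR adjusted p = 7.8e-06). The levels of both genes in members lay above those of type 2 cells in each library. Fas, a death receptor, was higher by 3.23 ± 0.45 (edgeR adjusted p = 7.7e-05). Without day 7, Fas was at 1.78 and no longer passed (edgeR adjusted p = 0.26).

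The NF-kB list had 14 of 22 tested genes higher and 2 lower against type 2 cells (median log2 fold change 1.25), 19 and 0 against type 1 cells (1.99) and 17 and 0 against macrophage-like cells (1.39). Relb, the partner of the Nfkb2 product, was at 478, 556 and 556 CPM in members. Its levels were 42.0, 52.1 and 88.0 CPM in type 2, 22.4, 30.8 and 43.9 CPM in type 1 and 29.0, 39.1 and 47.4 CPM in macrophage-like cells. The log2 fold changes of Relb were 3.24 ± 0.19, 4.06 ± 0.21 and 3.84 ± 0.19 (edgeR adjusted p = 1.6e-08, 2.3e-09 and 6.0e-10). The members' levels were close over the 3 libraries, while those of type 2, type 1 and macrophage-like cells were highest after reversal. Nfkb2, whose start carries both motif matches printed above, was at 104, 125 and 168 CPM against 38.5, 51.6 and 28.8 CPM in type 2 cells (1.80 ± 0.26, edgeR adjusted p = 1.0e-04).

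Map3k14 encodes NIK, the kinase that starts the branch of RelB. It was at 41.6, 122 and 143 CPM in members against 43.8, 42.1 and 38.9 CPM in type 2 cells, so members were not higher on day 2 (1.56 ± 0.30, edgeR adjusted p = 0.0015). Traf1, an adaptor induced by NF-kB, was at 270, 674 and 541 CPM against 145, 155 and 225 CPM (1.68 ± 0.24, edgeR adjusted p = 8.6e-05). Birc2, a ubiquitin ligase of this pathway, was at 270, 199 and 139 CPM against 5.26, 24.1 and 25.4 CPM (3.29 ± 0.33, edgeR adjusted p = 3.9e-06). Nfkb1, of the other branch, was lower than in type 2 cells, at 104, 105 and 124 CPM against 236, 208 and 291 CPM (-1.0 ± 0.22, edgeR adjusted p = 0.0039). Against type 1 cells it was 0.69 ± 0.24 (edgeR adjusted p = 0.061), past no threshold, and it was higher than in macrophage-like cells by 0.65 ± 0.22 (edgeR adjusted p = 0.045). Without day 2, Nfkb1 was called higher than in type 1 cells, both with and without the cells holding other RNA. Tnfrsf9, the receptor 4-1BB, was at 62.4, 55.3 and 47.5 CPM in members and at most 6.77 CPM in any comparison group (4.35 ± 0.60 against type 2 cells, edgeR adjusted p = 7.6e-05). Without the day 7 library, 6, 12 and 10 genes of the NF-kB list were higher in the 3 comparisons. Against type 2 cells, Map3k14 and Nfkb1 then no longer passed (edgeR adjusted p = 0.079 and 0.051).

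Survival genes followed the same direction, with 8 of 12 higher and 1 lower against type 2 cells, 9 and 0 against type 1 cells, and 8 and 1 against macrophage-like cells. Of those higher than in type 2 cells, Birc2 and Birc3 are also on the NF-kB list, and Bcl2a1a, Bcl2a1b and Bcl2a1d are related copies. Serpinb9, which blocks granzyme B, was at 187, 334 and 219 CPM against 3.50, 41.6 and 15.2 CPM in type 2 cells (3.53 ± 0.27, edgeR adjusted p = 1.5e-07). Serpinb6b, another serpin, was at 478, 509 and 428 CPM against 3.50, 18.0 and 0 CPM in type 2 cells (5.53 ± 0.42, edgeR adjusted p = 1.6e-07). Type 1 cells had more Serpinb6b (59.6, 83.2 and 136 CPM), and the log2 fold change against them was 2.29 ± 0.34 (edgeR adjusted p = 1.2e-04). Bcl2a1b, a relative of Bcl2 with near-identical copies among which reads can be split, was higher by 1.95 ± 0.28 against type 2 cells (edgeR adjusted p = 1.1e-04). Bcl2 itself was lower, at 41.6, 14.1 and 11.0 CPM against 50.8, 38.1 and 40.6 CPM (-1.33 ± 0.36, edgeR adjusted p = 0.017). The Bcl2 call was lost without day 7 and without reversed UUO (edgeR adjusted p = 0.25 and 0.13).

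**Figure D4:**
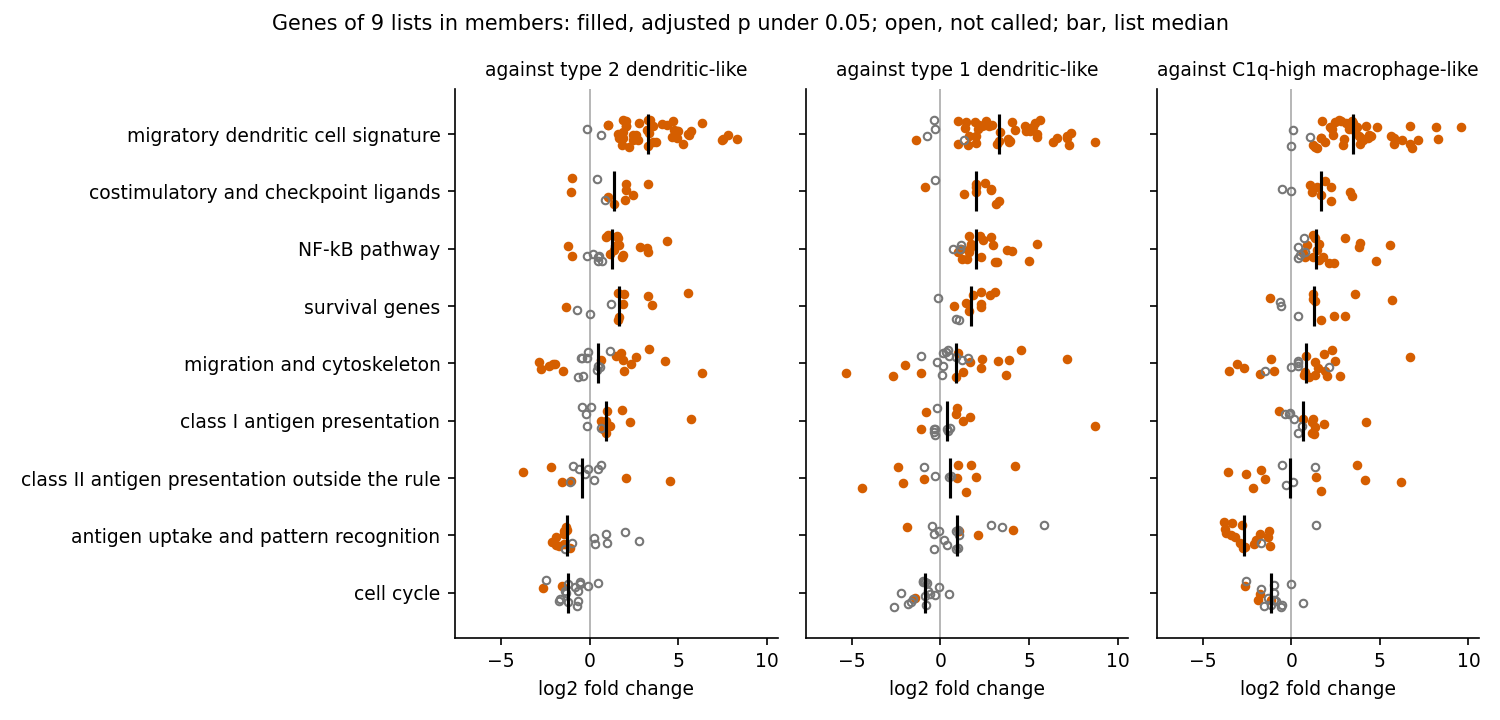
Log2 fold change of each tested gene of 9 lists, members against type 2, type 1 and macrophage-like cells; filled points have an edgeR adjusted p under 0.05, open points do not, and bars are list medians. The migratory list lies to the right in all 3 panels (medians 3.32, 3.30 and 3.51), and the uptake list lies to the left against type 2 and macrophage-like cells (-1.30 and -2.65).

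Genes of migration and the cytoskeleton moved in both directions. Of 26 tested, 10 were higher and 6 lower against type 2 cells, 11 and 4 against type 1 cells, and 14 and 6 against macrophage-like cells. Marcksl1, an actin-binding protein gene, was at 1061, 1615 and 1089 CPM against 85.8, 152 and 139 CPM in type 2 cells (3.37 ± 0.22, edgeR adjusted p = 3.4e-08). Swap70, which acts in Rac signalling and actin remodelling, was at 270, 255 and 252 CPM against 42.0, 47.1 and 40.6 CPM (2.60 ± 0.20, edgeR adjusted p = 2.0e-07), nearly level over the 3 libraries. Myo1g, a membrane myosin gene, was at 354, 343 and 238 CPM against 85.8, 73.2 and 99.8 CPM (1.95 ± 0.20, edgeR adjusted p = 4.0e-06). Anxa3, an annexin gene, was higher by 4.25 ± 0.32 (edgeR adjusted p = 1.2e-07).

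A chemokine receptor of recruitment from blood was among the lower genes. Ccr2, the receptor of monocyte recruitment, was at 83.2, 113 and 18.3 CPM in members. It was at 524, 549 and 630 CPM in type 2, 440, 468 and 514 CPM in type 1 and 604, 797 and 591 CPM in macrophage-like cells. The groups did not overlap, and the log2 fold changes of Ccr2 were -2.87 ± 0.35, -2.68 ± 0.35 and -3.08 ± 0.34 (edgeR adjusted p = 2.0e-05, 3.4e-05 and 3.9e-06).

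Uptake and pattern recognition genes were lower than in type 2 and macrophage-like cells, and mostly not than in type 1 cells. Of 18 tested, 10 were lower and 0 higher against type 2 cells (median log2 fold change -1.30), 16 and 0 against macrophage-like cells (-2.65), and 1 lower and 3 higher against type 1 cells (0.94). Against type 2 cells 6 were lower without reversed UUO and 4 without the library block. Mrc1, the mannose receptor, was at 0, 37.3 and 3.66 CPM in members against 35.0, 122 and 79.5 CPM in type 2 cells (-1.90 ± 0.40, edgeR adjusted p = 0.0031). Without the library block the Mrc1 call was lost (edgeR adjusted p = 0.19). Fcer1g, the shared chain of Fc receptors, was at 811, 986 and 424 CPM against 2002, 2082 and 1755 CPM (-1.45 ± 0.24, edgeR adjusted p = 3.6e-04). Against type 1 cells, at 239, 562 and 248 CPM, Fcer1g was higher (1.05 ± 0.24, edgeR adjusted p = 0.0050). Lyz2, a lysozyme gene of macrophages, was at 250, 1695 and 603 CPM in members and 6664, 12420 and 17928 CPM in macrophage-like cells (-3.81 ± 0.43, edgeR adjusted p = 4.4e-06).

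Antigen presentation by class II outside the rule genes was mixed, with 2 of 14 genes higher and 4 lower against type 2 cells. The counts were 6 and 4 against type 1 cells, and 5 and 5 against macrophage-like cells. March1, whose product removes class II from the surface, was at 0, 5.14 and 7.31 CPM in members against 70.1, 80.2 and 71.1 CPM in type 2, 123, 110 and 117 CPM in type 1 and 36.2, 86.8 and 71.7 CPM in macrophage-like cells. Its log2 fold changes were -3.75 ± 0.53, -4.41 ± 0.51 and -3.56 ± 0.52 (edgeR adjusted p = 9.6e-05, 1.1e-05 and 7.2e-05). H2-DMb1, a chain of the peptide exchanger of class II, was at 416, 237 and 132 CPM against 1284, 959 and 951 CPM in type 2 cells (-2.17 ± 0.37, edgeR adjusted p = 4.8e-04). H2-Eb2, a second class II beta chain gene, went the other way, at 62.4, 105 and 98.7 CPM against 1.75, 5.01 and 5.08 CPM (4.52 ± 0.49, edgeR adjusted p = 6.6e-06). H2-Eb2 is a close relative of the rule gene H2-Eb1, and reads could be split between them.

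Type 1 lineage genes were lower in members than in type 1 cells. Type 2 lineage genes were mostly higher than in type 1 cells, and those called against type 2 cells were mostly lower. Type 1 and type 2 cells were picked by lineage markers, with members taken out. Lower values in members of genes that go with those markers therefore follow in part from the picking. Such counts and p-values are a description and no test of lineage. Of 15 type 1 genes outside the rules, 14 were lower and 0 higher than in type 1 cells, and 3 were lower and 2 higher than in type 2 cells. Irf8, the factor that type 1 cells need, was at 104, 291 and 168 CPM in members and 2519.5, 1941 and 1746 CPM in type 1 cells (-3.30 ± 0.30, edgeR adjusted p = 9.5e-07). Members nonetheless had more Irf8 than type 2 cells, at 84.1, 87.2 and 82.9 CPM (1.41 ± 0.31, edgeR adjusted p = 0.0045). Without day 7 this Irf8 difference was 0.87 and did not pass (edgeR adjusted p = 0.26). Wdfy4, needed for cross-presentation, was at 41.6, 24.4 and 47.5 CPM against 287, 288 and 286 CPM in type 1 cells (-3.10 ± 0.29, edgeR adjusted p = 1.3e-06). Of 13 type 2 genes, 6 were lower and 1 higher than in type 2 cells (median log2 fold change -0.94), and 2 were lower and 9 higher than in type 1 cells (2.09). The summed level of the type 2 list was 4077, 3065 and 2932 CPM in members and 3510, 4778 and 3777 CPM in type 2 cells, so members were higher on day 2 and lower in the other libraries. Among them Mgl2, a lectin gene, was at 41.6, 237 and 183 CPM against 615, 1359.9 and 806 CPM (-2.39 ± 0.37, edgeR adjusted p = 2.4e-04). Irf4, the factor tied to type 2 cells, had 20 UMIs in 10 members, and 9 of them lay in 1 reversed cell. Flt3, a growth factor receptor of dendritic cells, was at 104, 56.6 and 84.1 CPM in members against 2.41, 3.12 and 1.41 CPM in macrophage-like cells (4.79 ± 0.32, edgeR adjusted p = 2.0e-08). Type 1 cells had more Flt3, at 149, 124 and 148 CPM (-0.88 ± 0.25, edgeR adjusted p = 0.020), and against type 2 cells it did not pass the test (0.61 ± 0.27, edgeR adjusted p = 0.15). Without day 2 alone both outcomes were kept. Without day 2 and the cells holding other RNA, the Flt3 call against type 1 cells was lost, and Flt3 was called higher than in type 2 cells.

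Beyond the lists, the largest decreases against type 2 cells were in Ptpn7, a phosphatase gene of blood cells, Lrmp and Iqgap2. Ptpn7 was at 0, 1.29 and 0 CPM in members and 43.8, 40.1 and 25.4 CPM in type 2 cells (-4.98 ± 0.70, edgeR adjusted p = 8.6e-05). Lrmp was at 0, 1.29 and 3.66 CPM against 71.8, 55.1 and 57.5 CPM (-4.89 ± 0.54, edgeR adjusted p = 8.0e-06), and was among the 10 largest decreases against the other groups too. In macrophage-like cells, P2ry12 stood at 16.9, 23.2 and 17.9 CPM. It had no UMI in any member, which puts members at least 7.79-fold lower against a floor of 3 counts over all members. In type 1 cells, Pianp stood at 41.0, 51.6 and 52.2 CPM, and members, with none, were at least 18.6-fold lower.

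Fibroblast markers and cell cycle genes moved with which members and libraries were used. Of 5 tested fibroblast markers, 3 were higher against type 2 cells and 0 lower. Their summed level in members was 20.8 CPM on day 2, 2701 on day 7 and 241 after reversal. Without day 2, 3 were higher, and with the 23 cells left out too, 0 were higher and 4 lower, while the comparison cells stayed as they were. Col3a1, a collagen gene, was higher by 1.50 ± 0.29 (edgeR adjusted p = 0.0015), with 287 of its 716 day 7 UMIs in 1 cell, and its log2 fold change was 1.41 without day 2 and -2.63 without day 2 and those cells. Without day 7 the Col3a1 call was lost (edgeR adjusted p = 0.077). Of 17 cell cycle genes, 2 were lower against type 2 cells, 8 without day 2, and 12 without day 2 and the 23 cells. Against type 1 cells the counts were 1, 8 and 12, and against macrophage-like cells 4, 4 and 9, in the same order. Top2a, needed for dividing chromosomes, was at 0, 19.3 and 0 CPM in members and 68.3, 104 and 103 CPM in type 2 cells (-2.63 ± 0.71, edgeR adjusted p = 0.017).

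Between time points only day 7 and reversed UUO had enough members (85 and 24) for gene by gene values. Of 5323 genes with at least 20 UMIs over both, 183 were at least 2-fold higher after reversal (3.44%) and 346 at least 2-fold lower (6.50%), as ratios of CPM with 10 CPM added, and the median log2 ratio was -0.11. These are 1 library each, so they describe these libraries and not the conditions. In such bulk sums a change in a cell's RNA and a change in which cells passed the rule cannot be told apart.

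Of 46 migratory genes, 1 was at least 2-fold higher and 4 lower after reversal (median log2 ratio -0.28). Without the 23 cells 2 were higher and 6 lower (-0.28), next to 3.19% and 6.38% of all genes. Of 22 NF-kB genes none moved that far (median 0.06), and 1 of 21, Rela, was lower without the 23 cells. Il4i1 had a log2 ratio of -0.64 (-0.91 to -0.38), Ccl5 of -0.36 (-0.50 to -0.23) and Relb of 0.00 (-0.27 to 0.27). Ccl17 was higher after reversal by 0.73 (0.63 to 0.83), or 1.12 without the 23 cells, and Il12b by 0.80 (0.40 to 1.19). With all 3 rule genes detected, the log2 ratio of Ccl17 was -0.32. The highest cell held 366 of 2411 Ccl17 UMIs on day 7 and 505 of 1409 after reversal. Apol7c was lower by 1.88 on the log2 scale (interval -2.52 to -1.26), and Cd40 had a log2 ratio of -1.54 (-2.24 to -0.88).

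Interferon response genes were lower after reversal. Of 17 with enough UMIs, 11 were at least 2-fold lower after reversal and 0 higher (median log2 ratio -1.45). It was 7 of 12 with all 3 rule genes detected and 5 of 7 with cells thinned to 2000 UMIs. Without the 23 cells it was 12 of 15 (-1.52), next to 238 of 3731 genes of all kinds. Macrophage and monocyte markers moved the same way, with 9 of 15 lower (median log2 ratio -1.17) and 8 of 10 without the 23 cells (-1.64), and their part in the result was not tested. In type 1, type 2 and macrophage-like cells 8 of 15, 5 of 15 and 2 of 18 of these markers were lower (-1.07, -0.52 and -0.05). Isg15, a ubiquitin-like protein induced by interferon, was at 20.8 CPM on day 2, 391 on day 7 and 32.9 after reversal (log2 ratio -3.22, -4.02 to -2.45). Irf7, the factor that amplifies interferon production, had 196 UMIs on day 7 (252 CPM) and 8 after reversal (29.2 CPM), with a log2 ratio of -2.74 (-3.56 to -1.92). Cxcl9, a chemokine induced by interferon gamma, was at 138 and 11.0 CPM (-2.82, -3.62 to -1.77).

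Part of this came from few cells. The 18 interferon genes had a median of 12.7 UMIs per 10000 on day 7 (from 0 to 312), 5.61 after reversal (0 to 19.6) and 7.09 in the 5 day 2 members. On day 7, 23 of 85 members lay above the highest reversed member, and 5 cells held 723 of 1758 interferon UMIs (41.1%). The same list in other cells of the 2 libraries had 8 of 18 genes at least 2-fold lower in type 1 cells (median -0.81), 6 of 18 in type 2 cells (-0.58), 0 of 18 in macrophage-like cells (-0.49), 1 of 17 in endothelial cells (-0.16) and 5 of 16 in proximal tubule cells (-0.80). Over all genes, the share at least 2-fold lower was 6.50% in members and 1.96%, 1.36%, 0.301%, 0.748% and 1.92% in these 5 groups in the same order. The decrease was not limited to the members, and the difference between cell groups was not tested.

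**Figure D5:**
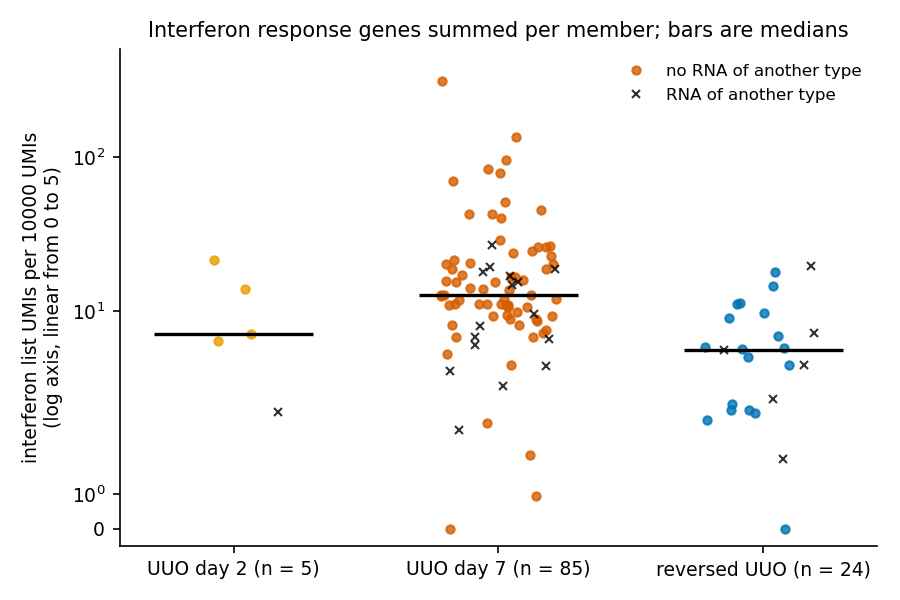
UMIs of the 18 interferon response genes per 10000 UMIs in each member, by library, with medians as bars and members with RNA of another cell type as crosses, on an axis that is linear from 0 to 5 and logarithmic above. Day 7 cells reach 312 while no reversed cell exceeds 19.6.

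Markers of other cell types differed between the libraries as well. All 8 proximal tubule markers with enough UMIs were at least 2-fold higher in reversed members (median log2 ratio 2.68), and so were 9 of 10 in type 1 cells, 6 of 9 in type 2 cells, 9 of 10 in macrophage-like cells and 7 of 10 in endothelial cells, where 0.927%, 1.04%, 0.860% and 0.641% of all genes were. In 1 reversed member lay 696 of the 1171 proximal tubule UMIs of the 24, whose median was 15.5 (3 on day 7). Without the 23 cells 5 of 5 were higher (2.18). Of the other tubule markers 4 of 4 were higher in members (1.56), 2 of 3 without the 23 cells, and 0 of 8 in each of the type 1, type 2, macrophage-like and endothelial cells, where 3, 1, 0 and 1 were at least 2-fold lower. Fibroblast markers were lower in 4 of 4 cases in members (median log2 ratio -3.36; 1 of 1 without the 23 cells), neutrophil markers in 2 of 2 (-1.76, and 2 of 2 without them) and cell cycle genes in 6 of 10 (-1.48; 1 of 3 without them). In type 1, type 2 and macrophage-like cells, 2 of 3, 2 of 3 and 3 of 6 neutrophil markers and 2 of 3, 4 of 5 and 5 of 6 fibroblast markers were lower too. Kap was at 318 CPM in day 7 members and 2032 in reversed members. The reversed library also held more proximal tubule cells (1082 against 194), and the part of free RNA was not tested. Of the 10 largest increases, 9 each had most of its UMIs in 1 reversed cell: 1127 of 1129 Jchain UMIs, 181 of 182 Slpi UMIs, 110 of 110 Mzb1 UMIs and 37 of 37 Areg UMIs, and also 71 of 79 Serpine2, 25 of 29 Pck1, 71 of 86 Acsm2, 18 of 24 Slc4a4 and 27 of 37 Ttr UMIs. Slc34a1, the other gene, had 34 of 69 UMIs in the highest of 17 cells. Among decreases, all 77 Dlk1 UMIs and 119 of 156 Ccl8 UMIs lay in 1 day 7 cell each, and Sfrp1, Cxcl12, Meg3, Serpinf1, Dcn and Gas1 came from 4 to 11 day 7 cells. Uptake genes were lower after reversal in 8 of 14 cases, and in 2 of 11 without the 23 cells.

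The Smart-seq2 wells added little. Full-length reads without UMIs were searched for wells with at least 2 of the 3 rule genes at 10 reads or more, class II genes at 100 reads or more and no Cd3e. Of 768 wells, 716 passed the class II and Cd3e limits and 1 passed in full (0.130%). The macrophage gene C1qa had reads in 714 of the other 715 wells within those limits. The share of wells is therefore not comparable with the shares of the droplet libraries. That well had 497150 reads, with 3223 of Ccr7, 300 of Fscn1, 4673 of Cacnb3, 732 of Nudt17 and 1002 of Apol7c. Ccl22, Il4i1, Ccl17, Il12b and Fabp5 had no read in it.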

How the data were processed

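Single-cell suspensions of kidney were run as 4 droplet libraries, deposited by the authors as a matrix of UMI counts without normalization, with 28692 gene IDs and 28625 symbols. Cell Ranger, STAR and the builds GRCm38 and mm10 are named per the submitters' processing notes, and tool versions are not given in the sources used here. For Smart-seq2 the deposited values are read counts.

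Members and gene lists were chosen with earlier results of these data known. Of 384 list genes, 5 matched no symbol. Comparison groups were set by marker UMIs, all with class II of at least 20, no Cd3e and members taken out. Type 1 cells had Xcr1, Clec9a and Tlr3 together at least 2. Type 2 cells had Cd209a at least 2 and the type 1 genes together at most 1. Both had C1qa, C1qb and C1qc together under 20. Macrophage-like cells had these C1q genes at least 20 and Adgre1, Fcgr1 and Csf1r together at least 2. Their type 1 genes together and their Cd209a were each at most 1. Members had none of these limits: 22 of 114 met a comparison rule and 10 had at least 20 C1q UMIs. Counts were summed per library and cell group for the 3 libraries with at least 5 members and tested with edgeR 4.0.16 (TMM, default filter, library as block, R 4.3.3). The block pairs sums of the same mice and run. DESeq2 1.42.0 was an alternative. Genes were called at an adjusted p under 0.05. Between libraries, CPM with 10 CPM added and at least 20 UMIs over both were compared with exact conditional binomial intervals, and shares have Clopper-Pearson intervals (scipy 1.17.1). A count of 0 allows up to 3 counts. Doublets were not removed, and Scrublet in scanpy 1.11.5 was an alternative. The text names list genes and, per edgeR comparison, from the 10 largest increases and decreases among called genes with at least 100 UMIs in the higher group, and between libraries the 10 largest past 2-fold, leaving out group-setting, mitochondrial, ribosomal, haemoglobin, antigen receptor and unnamed genes. Scripts were tested on simulated data. Some genes are not reported here.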

Additional observations from a re-analysis of the deposited data

Results flagged for a closer look

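In the Smart-seq2 sample, which no comparison used, 1 of 768 wells met the rule for wells. It drew attention as a signal in data outside the main measurement. The time point of that well is not given by the labels, and a single well allows no comparison.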

How the results depend on the processing

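Of 2905 alternative values for 212 named gene results in the 3 cell group comparisons, 2757 kept direction and side of the threshold, 143 no longer passed it and 5 changed sign: Col3a1 against type 2 cells (-2.88 with all 3 rule genes detected, -2.63 without cells holding other RNA), Cd79b against type 2 cells (-2.34 with all 3 genes, -7.77 with B cell genes at 0) and Timp1 against type 1 cells (-0.62 with all 3 genes). The cause was not tested. The limits on other RNA and on B cell genes, and thinning before the rule, were chosen after seeing the data. Fits with all 3 genes, with B cell genes at 0 or without other RNA also leave out day 2, which then holds fewer than 5 members. Values between day 7 and reversed UUO were less stable. Of 313 alternative values for 47 named gene results there, 228 stayed within the interval of the main value and 85 moved outside it. For 28 other results, such as shares and counts of genes, 65 of 298 alternative values moved past their set limit. The share of members moved on day 7 to 2.56% (at least 2 UMIs), 0.989% (all 3 genes), 1.33% and 0.810% (thinned to 2000 and 1000 UMIs), and after reversal to 0.309% (all 3 genes), 1.16% (at most 20% mitochondrial), 0.278% and 0.155% (thinned). Members with Il4i1 were 94.7% with all 3 genes and 91.2% without other RNA. The Il4i1 share at equal depth was 49.4% on day 7 and 16.7% after reversal at 1000 UMIs, and 83.5% and 75.0% without thinning.

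Without the library as a replicate block, 377 genes were higher and 350 lower against type 2 cells, 497 and 338 against type 1 cells, and 491 lower against macrophage-like cells, with 4 uptake, 0 fibroblast (higher) and 1 cell cycle genes against type 2 cells. Thinned to 2000 UMIs, which leaves 2753 genes to test in place of 7979, the calls were 237 and 244, 252 and 194, and 316 and 364. The migratory list then had 28, 26 and 27 of 30 higher, the NF-kB list 8 and 12 of 13 against type 2 and type 1 cells, uptake 10 of 12 lower against macrophage-like cells and cell cycle 1 of 5. Without a filter on low counts, with 17949 genes tested, 1286 were lower against macrophage-like cells and 9 cell cycle genes against type 2 cells. DESeq2 called 601 and 485, 724 and 501, and 760 and 714. Leaving out 1 library at a time gave 258 to 794 higher and 262 to 598 lower against type 2 cells, 305 to 922 and 221 to 576 against type 1 cells, and 363 to 1044 and 426 to 906 against macrophage-like cells. The lowest count each time was without day 7. In the same way the NF-kB list had 6 to 13, 12 to 20 and 10 to 18 genes higher, uptake 6 to 9 lower (6 without reversed UUO), fibroblast 0 to 3 higher (0 without day 7) and cell cycle 1 to 8 lower (8 without day 2, 1 without reversed UUO) against type 2 cells. Fibroblast genes numbered 1 with Scrublet and 0 with all 3 genes or without other RNA. Cell cycle genes numbered 11 with all 3 genes, 7 with B cell genes at 0 and 12 without other RNA. Between libraries, genes higher after reversal were 71 (at least 50 UMIs), 54 (thinned) and 119 (other RNA left out), and lower 601 (1 CPM added), 150 (at least 50 UMIs) and 148 (thinned). Interferon genes lower after reversal were 7 (all 3 genes) and 5 (thinned). With 5 members on day 2, values of that library rest on few cells.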

Other observations

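Class I antigen presentation genes were higher in members than in type 2 cells. Of 15 tested, 10 were higher and 0 lower against type 2 cells (median log2 fold change 0.90), 5 higher and 2 lower against type 1 cells (0.39), and 8 higher and 1 lower against macrophage-like cells (0.69). H2-K1, a class I heavy chain, was at 1352, 1611 and 1499 CPM on day 2, on day 7 and after reversal, against 573, 982 and 800.5 CPM in type 2 cells (0.97 ± 0.21, edgeR adjusted p = 0.0041). Tap1, of the peptide transporter, was at 187, 208 and 208 CPM against 96.3, 131 and 91.4 CPM (0.98 ± 0.22, edgeR adjusted p = 0.0053), and did not pass the test against type 1 cells (-0.31 ± 0.22, edgeR adjusted p = 0.40). Psmb9, of the immunoproteasome, was higher than in type 2 cells (0.92 ± 0.22, edgeR adjusted p = 0.0081) and lower than in type 1 cells (-0.79 ± 0.22, edgeR adjusted p = 0.018). Without reversed UUO the calls of H2-K1, Tap1 and Psmb9 against type 2 cells were lost (edgeR adjusted p = 0.084, 0.15 and 0.091), and that of Psmb9 against type 1 cells (0.20). Without day 7, Psmb9 against type 2 cells was lost too (0.073). The Psmb9 call against type 1 cells was also lost without day 2 and the members holding RNA of other cell types, and not without day 2 alone.

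Some sterol metabolism genes were higher in members. Of 16 tested, 3 were higher and 0 lower against type 2 cells, 5 and 0 against type 1 cells, and 8 and 3 against macrophage-like cells. Those higher than in type 2 cells were Hmgcs1, Idi1 and Apoe, and Apoe is also on the macrophage marker list. The Apoe call was lost without day 2 and the members holding RNA of other cell types, and not without day 2 alone. Idi1, an isomerase of the isoprenoid pathway, was at 208, 170 and 121 CPM in members and 42.0, 35.1 and 47.4 CPM in type 2 cells (2.07 ± 0.24, edgeR adjusted p = 1.6e-05). Its log2 fold change was 2.81 ± 0.27 against type 1 and 3.40 ± 0.24 against macrophage-like cells (edgeR adjusted p = 1.5e-06 and 2.8e-08). Without day 2, 4, 3 and 8 of 17 sterol metabolism genes were higher in the 3 comparisons, and without day 2 and the members holding RNA of other cell types 5, 7 and 9.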
